A study of Homo sapiens with 6 samples.

Results

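The genes described here encode enzymes and a regulator of the first steps by which a cell traps and breaks down hexose sugars. They comprise the hexokinases HK1, HK2 and HK3, the regulator GCKR, the fructose-specific route of KHK and TKFC, and the polyol route of AKR1B1 and SORD. Of these 8 genes, 6 were measured, each by 1 probe set that the platform annotation pairs with that symbol alone, among 18404 genes with a probe set. AKR1B1 and SORD were not analysed here. The samples were cultures of MDA-MB-231, an established human cell line of triple-negative breast cancer origin, with 1 array each. In 3 cultures the DMEM medium held 25 mM glucose and in 3 it held 10 mM fructose. All were kept on their sugar for 25 days, and RNA was prepared near 70% confluency, some 24 hours after the medium had been renewed. Replicates of a sugar were separately adapted batches of this 1 line, and no other line or untreated state was included. Because 25 mM of one sugar was set against 10 mM of the other, the effects of sugar, dose and lack of glucose cannot be told apart.

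A hexokinase adds a phosphate to glucose, fructose or mannose, which keeps the sugar in the cell and starts glycolysis or the pentose phosphate pathway. HK1 is the widespread form, HK2 is the form often raised in tumours, and HK3 is found mainly in leukocytes. Fructose has a second entry in liver, kidney and intestine, where ketohexokinase (KHK) makes fructose-1-phosphate, an aldolase splits it, and triokinase (TKFC) phosphorylates the glyceraldehyde that results. GCKR is best known in hepatocytes, where its protein restrains the phosphorylation of glucose and is itself controlled by binding fructose phosphates. The polyol route turns glucose into fructose by way of sorbitol. The question that the series' title frames, the effect of restricted glycolysis on expression, was asked here of the genes that carry out hexose entry.

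The RMA intensities, which are brightness values on a linear scale, had medians between 31.5 and 33.5 on the 6 arrays over 28230 tested probe sets. Along the first principal component (28.8% of the variance) the glucose arrays lay between -14.8 and -13.5, fructose replicates 1 and 3 at 17.9 and 19.3, and fructose replicate 2 at 5.67, nearest to glucose. TXNIP, a gene transcribed in response to glucose, was 14.0-fold lower in fructose (log2 difference -3.80, limma adjusted p = 4.70e-05), and it was the single probe set past the threshold of 0.05, so that 0.00354% of all tested probe sets were called. Markers of the labelled line were bright, with VIM, CD44, AXL and CAV1 at mean log2 values from 10.6 to 11.5. The hormone receptors ESR1 and PGR were dim (4.02 and 2.63 in glucose), as was CDH1 (3.09), whereas the luminal keratin KRT19 was bright (10.8). Of the other luminal markers looked at, FOXA1 was at 4.49 in glucose. GATA3 (6.38) and ERBB2 (6.43) were above the median tested probe set (5.01).

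Among the 6 measured genes, GCKR had the largest difference, 1.72-fold higher in fructose, and HK2 was 1.14-fold higher. On each fructose array both stood above all glucose arrays, whereas the arrays of the sugars overlapped for HK1, HK3, KHK and TKFC. No member passed limma's test over all probe sets (0 of 6, smallest adjusted p 0.13). At an unadjusted p under 0.05 there were 2 of 6 (HK2 and GCKR), beside 13.1% of all tested probe sets. Without overlap between the sugars there were also 2 of 6, both higher in fructose, beside 20.2% of all tested probe sets in either direction (11.4% higher and 8.81% lower in fructose). With so few members, shares of this size are not a result about the group. The median difference of the 6 was 0.14 on the log2 scale, beside 0.021 over all tested probe sets, and 5 of 6 were positive. Without fructose replicate 1 the median was 0.079.

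**Figure D1:**
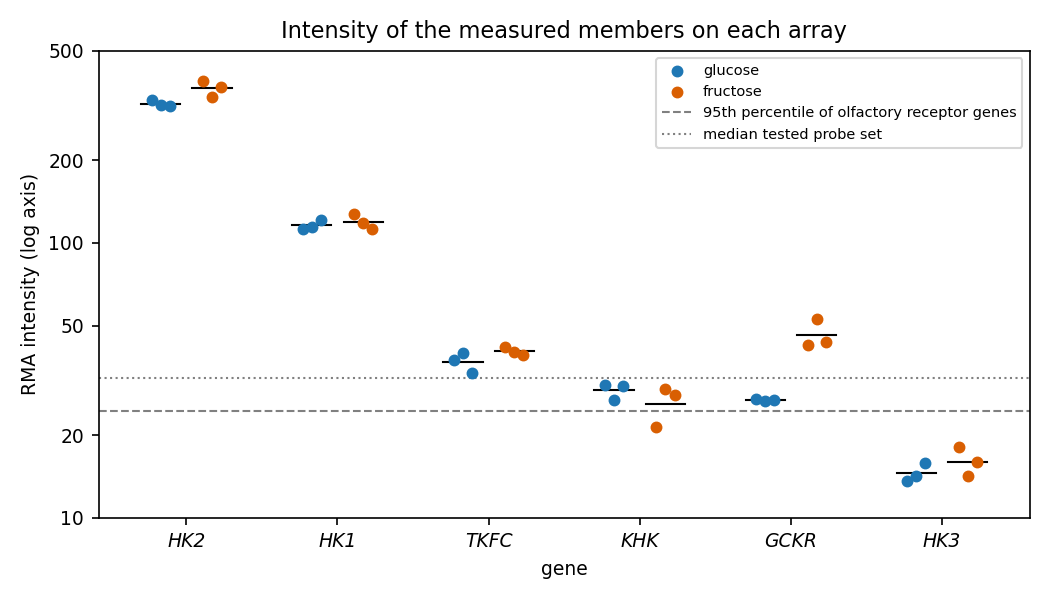
RMA intensity (log axis) of the 6 measured genes on each array, ordered by their level in glucose; points are arrays, short bars the mean of the log2 values, and dashed and dotted lines the 95th percentile of olfactory receptor genes and the median tested probe set. HK2 (314 to 389) and HK1 (112 to 127) lie far above the rest, and the fructose arrays of GCKR (42.6 to 52.7) lie apart from its glucose arrays (26.6 to 27.0).

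On all 6 arrays HK2 was the brightest member and HK1 came next, and HK3 was the dimmest. The values are probe set intensities, and probes of different genes bind with different strength, so the order is one of brightness and not of transcript number per length. HK2 was brighter than HK1 by 1.54 on the log2 scale (1.37 to 1.72 on single arrays), and HK1 was brighter than TKFC by 1.61 (1.52 to 1.85), with no overlap in either case. TKFC was brighter than KHK on all 6 arrays without overlap, and the range of GCKR overlapped both of theirs. In glucose the order was TKFC, KHK and GCKR on all 3 arrays, and in fructose it was GCKR, TKFC and KHK on all 3.

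To place the dim members, 340 olfactory receptor genes, which breast cells are not thought to express, served as a reference. Their median mean log2 value was 3.18 and their 95th percentile 4.61, and the tested probe sets as a whole had a median of 5.01. By its mean in glucose, HK2 was brighter than 100% of them, HK1 than 99.4%, TKFC than 98.5%, KHK than 97.9%, GCKR than 96.2% and HK3 than 79.1%. In fructose GCKR was brighter than 99.4% and KHK than 95% of them. Only HK2 was brighter than the brightest olfactory receptor gene, which had a mean log2 value of 8.12. HK3 lay below the 95th percentile of these genes on every array. KHK lay just above that percentile on 5 of 6 arrays and below it on fructose replicate 1. GCKR in glucose was dimmer than KHK on all 3 arrays and also just above that percentile. A difference in HK3, KHK or GCKR is therefore measured from a level close to that of genes thought to be silent.

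HK2 phosphorylates hexoses and can dock on the outer mitochondrial membrane. Its intensity was 330, 316 and 314 on glucose replicates 1 to 3 and 389, 340 and 369 on fructose replicates 1 to 3. Every fructose array was above every glucose array, and fructose replicate 2, the array nearest to glucose on the first component, was also the lowest of the fructose arrays here. The means were 320 ± 9.02 in glucose and 366 ± 24.6 in fructose (SD, n = 3 each). The log2 difference was 0.19 (SE 0.08, 95% interval 0.014 to 0.37), and limma's adjusted p was 0.35. HK2 was brighter than 88.6% to 91.0% of the tested probe sets on single arrays.

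HK1, the other bright hexokinase, differed between the sugars by less than the spread between replicates. Its intensity was 113, 114 and 121 on the glucose arrays and 127, 118 and 112 on the fructose arrays, so that the lowest and the highest value both came from fructose. The means were 116 ± 4.62 and 119 ± 7.37 (SD, n = 3 each). The log2 difference was 0.04 (95% interval -0.14 to 0.22, limma adjusted p = 0.87), an interval that lies within a 1.5-fold change in either direction. Without fructose replicate 1 it was -0.0085.

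HK3, the leukocyte form, was dim in both sugars. Its intensity was 13.6, 14.2 and 15.9 in glucose and 18.1, 14.2 and 16.0 in fructose, and the arrays overlapped. The log2 difference was 0.14 (95% interval -0.11 to 0.40, limma adjusted p = 0.63). Leaving out fructose replicate 1 gave 0.056, and leaving out fructose replicate 2 gave 0.23. The 7 myeloid markers looked at beside it had mean log2 values from 2.37 to 5.01. PTPRC, the pan-leukocyte surface marker, was at 2.34 in glucose, and CSF1R, the brightest of them, was near the median tested probe set. The summed intensity of the 7 ran from 142 to 149 in glucose and from 134 to 143 in fructose. Of the 7, 3 were higher and 4 lower in fructose, with differences from -0.30 to 0.15. LYZ, at -0.30 (limma adjusted p = 0.31), was the single one without overlap, beside 20.2% of all tested probe sets. The part of these markers in the HK3 values was not tested.

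GCKR had the largest difference of the group. Its intensity was 27.0, 26.6 and 26.8 in glucose, a spread of less than 1 unit, and 42.6, 52.7 and 43.7 in fructose. The lowest fructose array thus stood well above the highest glucose array, and fructose replicate 2, which lay nearest to glucose on the first component, was here the highest. The means were 26.8 ± 0.207 in glucose and 46.3 ± 5.52 in fructose (SD, n = 3 each). The log2 difference was 0.78 (SE 0.09, 95% interval 0.56 to 1.004). Its unadjusted p, 6.58e-05, ranked 12 among 28230 probe sets, and limma's adjusted p was 0.13. The call depended on the fit: the adjusted p was 0.014 with an intensity trend and robust variances and 0.042 with 1 probe set per gene, and these settings called 1.68% and 0.19% of what they tested.

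In brightness GCKR stood just above the 95th percentile of the olfactory receptor genes in glucose, at percentiles 45.7 to 46.6 of the tested probe sets, and at percentiles 55.3 to 60.1 in fructose. Within an array its log2 value minus that of KHK was -0.16, -0.01 and -0.17 in glucose and 0.99, 0.84 and 0.65 in fructose. The same difference from TKFC was -0.47, -0.58 and -0.33 in glucose and 0.02, 0.40 and 0.16 in fructose. Both changed sign between the sugars on all arrays, and they were looked at after the values were seen, so no test is given. Hepatocyte markers were looked at because GCKR is a liver gene. The 6 measured (ALB, APOA1, APOB, TTR, FGB and SERPINA1) had mean log2 values from 2.68 to 5.41, with ALB at 2.68 in both sugars and differences from -0.047 to 0.10. APOA1, the brightest, was above the median tested probe set, at 5.43 in glucose and 5.39 in fructose, and the others were below it. The summed intensity of the 6 was 97.5 to 102 in glucose and 96.0 to 105 in fructose.

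The bases before the annotated start of GCKR are shown because this member differed most. In RefSeq (GRCh38.p14, plus strand) the stretch of 250 bases that ends just before the start is chr2:27496589-27496838. Both strands of this stretch were searched for CACGTG, the E-box that MYC with MAX and related factors bind, for CACGAG, the unit repeated in the carbohydrate response element of TXNIP, and for GTTAAT, part of the site of the liver factor HNF1. Only GTTAAT was found, at base -51 counted back from the start, and it stands in capitals.
GCKR: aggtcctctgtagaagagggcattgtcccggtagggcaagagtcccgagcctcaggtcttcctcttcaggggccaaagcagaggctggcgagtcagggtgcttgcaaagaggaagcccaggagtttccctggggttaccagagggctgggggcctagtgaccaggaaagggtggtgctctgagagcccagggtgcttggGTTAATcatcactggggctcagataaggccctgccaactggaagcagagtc

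RefSeq held 12 such stretches for 5 members (HK1, HK2, HK3, GCKR and TKFC), and CACGTG was found in 1 of them. That is the stretch before the second annotated start of HK2, inside the HK2 gene, with matches at bases -194 and -149. CACGAG was in none of the 12. It is repeated before a start of TXNIP, at bases -88 and -77, and that stretch is shown because TXNIP was the gene that passed the test. Among 35116 stretches of this length in RefSeq, 6.34% held CACGTG, 5.58% CACGAG and 6.23% GTTAAT, and a match in letters does not show a site in use. The HK2 stretch is chr2:74834970-74835030 on the plus strand and the TXNIP stretch chr1:145996644-145996674 on the minus strand, each read 5′ to 3′ along its gene with the matches in capitals.
HK2: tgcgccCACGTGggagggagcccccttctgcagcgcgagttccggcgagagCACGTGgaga
TXNIP: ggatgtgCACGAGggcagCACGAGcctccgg

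KHK, which opens the fructose-specific route, was dim, and no fructose array exceeded the brightest glucose array. Its intensity was 30.3, 26.9 and 30.2 in glucose and 21.4, 29.5 and 27.9 in fructose. Replicate 1 was the lowest of the fructose arrays and of all 6, and the other fructose arrays lay within the glucose range. The means were 29.1 ± 1.93 in glucose and 26.2 ± 4.26 in fructose (SD, n = 3 each). The log2 difference was -0.16 (95% interval -0.47 to 0.14, limma adjusted p = 0.64) and -0.022 without fructose replicate 1, and -0.25 without fructose replicate 2. The liver form and the widespread form of KHK, which arise by splicing, cannot be told apart with 1 probe set.

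TKFC, which phosphorylates glyceraldehyde and so joins the products of fructose-1-phosphate to glycolysis, was near the median of the array. Its intensity was 37.4, 39.8 and 33.6 in glucose and 41.9, 40.0 and 39.1 in fructose. Glucose replicate 2 lay within the fructose range, so the groups overlapped. The log2 difference was 0.13 (95% interval -0.066 to 0.33, limma adjusted p = 0.55), and 0.064 without glucose replicate 3. The intervals of KHK and TKFC both lie within a 2-fold change in either direction.

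**Figure D2:**
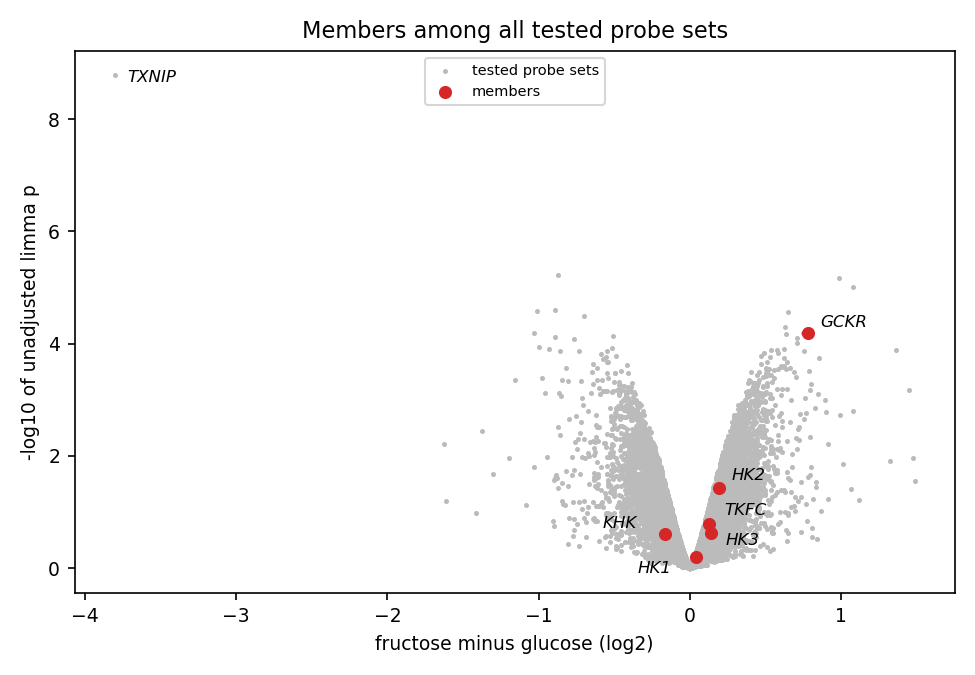
Difference between the sugars (log2, fructose minus glucose) against -log10 of the unadjusted limma p for the 28230 tested probe sets (grey), with the 6 members in red and TXNIP named. GCKR lies at the upper right edge with a difference of 0.78, while the other members lie between -0.16 and 0.19.

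Whether the balance of the kinases differed was asked within each array, where an array's overall brightness cancels. The log2 difference HK2 minus HK1 was 1.46 ± 0.09 in glucose and 1.62 ± 0.09 in fructose (SD, n = 3 each), with an exact two-sided permutation p of 0.20. For HK2 minus KHK, the hexokinase route against the ketohexokinase route, it was 3.46 ± 0.09 in glucose and 3.81 ± 0.34 in fructose (SD, n = 3 each; exact permutation p = 0.20). For HK1 minus KHK it was 1.99 ± 0.10 and 2.20 ± 0.32 (SD, n = 3 each; exact permutation p = 0.50). After Benjamini-Hochberg adjustment over these 3 comparisons the exact permutation p values were 0.30, 0.30 and 0.50, and 3 arrays against 3 cannot go below 0.10. In each pair the arrays of the sugars overlapped. Fructose replicate 1 had the largest difference in both comparisons with KHK (4.18 and 2.57), and without it the change between the sugars went from 0.35 to 0.17 for HK2 minus KHK and from 0.20 to 0.014 for HK1 minus KHK.

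**Figure D3:**
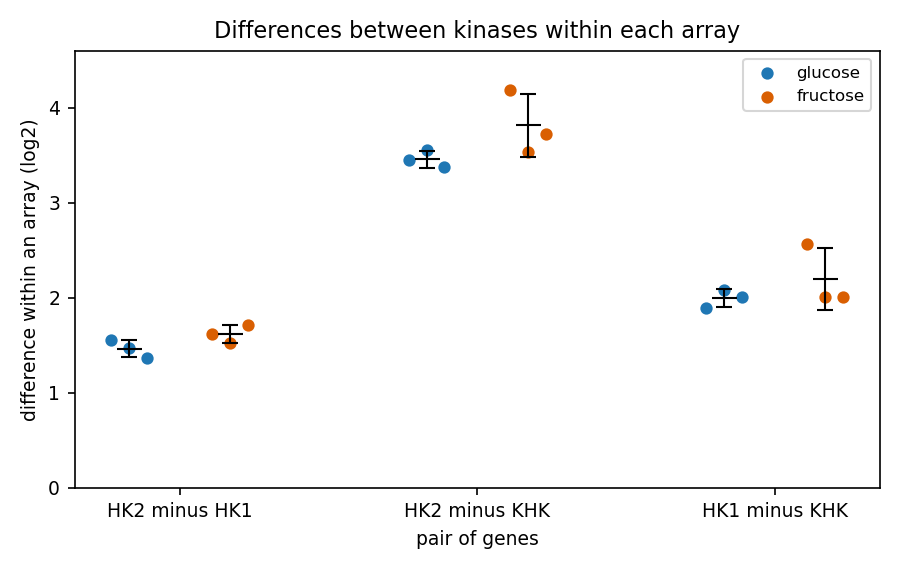
Log2 difference between pairs of kinases within each array; points are arrays, and bars give the mean and SD of 3 arrays per sugar. HK2 stands above KHK by 3.46 in glucose and 3.81 in fructose, and the arrays of the sugars overlap in all 3 pairs.

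Other genes of hexose entry were read from 7 short lists, in which 35 of 41 genes were measured. None of the 35 passed limma's test over all probe sets. At an unadjusted limma p under 0.05 there were 6 of 35, beside 13.1% of all tested probe sets. The median difference was 0.036, with 22 higher and 13 lower in fructose, and 7 of 35 had no overlap between the sugars. That share is close to the 20.2% of all tested probe sets given above.

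Among the other glucose kinases and the genes that release glucose from its phosphate, 6 of 7 were measured, none of them passed, and the smallest adjusted p was 0.48. ADPGK, a kinase that phosphorylates glucose at the expense of ADP, differed by 0.18 (limma adjusted p = 0.48), HKDC1, a hexokinase encoded next to HK1, by 0.27 from a dim level (4.40 in glucose, 0.58), and the phosphatase subunit G6PC3 by 0.10 (0.61). The liver and islet phosphatases G6PC1 and G6PC2 were dim, at 2.99 and 2.67 in glucose. Of the genes that interconvert mannose and hexose phosphates (5 of 6 measured), PMM1, a phosphomannomutase, was the single one without overlap and differed by 0.20 (limma adjusted p = 0.28). GPI, which links glucose-6-phosphate and fructose-6-phosphate, differed by -0.07, and so did MPI, which joins mannose-6-phosphate to fructose-6-phosphate (-0.07).

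Of the genes that cleave fructose-1-phosphate or use the trioses (6 of 7 measured), ALDOA, the main aldolase of most cells, was bright (9.73 in glucose) and differed by 0.08 (95% interval -0.076 to 0.23). FBP1, a gluconeogenic phosphatase that makes fructose-6-phosphate, had an intensity of 664, 621 and 687 in glucose and 773, 843 and 773 in fructose. Its arrays did not overlap, and its difference was 0.28 (limma adjusted p = 0.23). GLYCTK, a glycerate kinase of fructose and serine breakdown, differed by 0.17 (0.58).

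Beside the polyol route stand reductases and dehydrogenases of sugar alcohols and pentoses, of which 5 of 7 were measured, with a median difference of 0.20. DCXR, which reduces L-xylulose, had an intensity of 356, 345 and 368 in glucose and 470, 491 and 395 in fructose, a difference of 0.34 (limma adjusted p = 0.24) without overlap. CRYL1, a gulonate dehydrogenase, differed by 0.20 (0.38) and XYLB, the xylulose kinase, by 0.29 (0.42). AKR1B10, a close relative of AKR1B1, was dim (2.20 in glucose), and AKR1A1 was not analysed here. Galactose entry was measured by 4 of 5 genes, with GALK1, the galactose kinase, at 0.18 (0.45), GALK2 at 0.05 and GALT at 0.06. The mitochondrial channels on which hexokinase docks were all bright, and VDAC1 differed by 0.11 (limma adjusted p = 0.56), VDAC2 by 0.0094 and VDAC3 by -0.02. For the transporters that bring hexoses in, SLC2A3 differed by 0.41 (0.18), SLC2A12 by -0.38 (0.34) and SLC2A1 by 0.16 (0.39). The fructose transporter SLC2A5 was at 4.21 in glucose, below the 95th percentile of the olfactory receptor genes, and differed by 0.04 (95% interval -0.13 to 0.20).

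**Figure D4:**
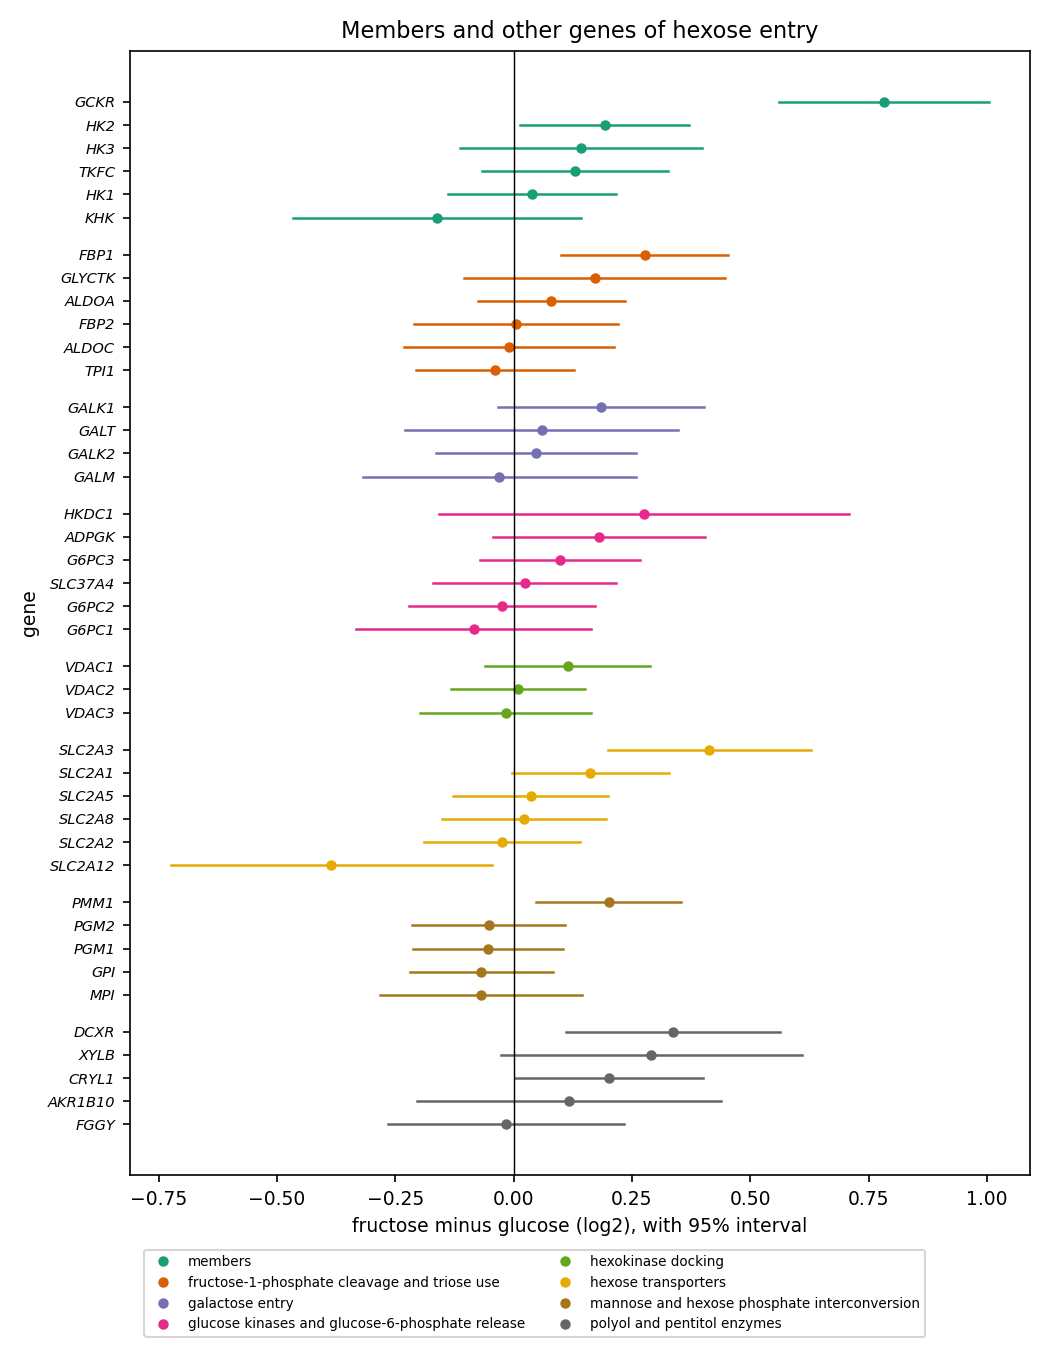
Difference between the sugars (log2, fructose minus glucose) with limma's 95% interval for the 6 members and 35 other genes of hexose entry, 1 line per gene and 1 colour per list. GCKR, at 0.78, has an interval (0.56 to 1.004) that lies above that of most other genes shown, and the intervals of KHK, HK1, HK3 and TKFC include 0.

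The genes whose values over the 6 arrays were most like those of HK2, among 11058 others above the median brightness, were NR3C2, PYCR1 and EVC, with Pearson r of 0.997, 0.991 and 0.988. For TKFC, the brightest measured gene of the fructose route, they were PIP5KL1, CDYL2 and SEC23IP, with 0.998, 0.998 and 0.991. These are descriptions over 6 arrays, which share the contrast of the sugars. So few points give many high values, and 294 genes had an r above 0.9 with HK2 and 104 with TKFC. NR3C2, the mineralocorticoid receptor, had an intensity of 98.5, 88.4 and 86.1 in glucose and 136, 106 and 124 in fructose. Fructose replicate 2 was the lowest of its group, as in HK2, but NR3C2 was picked for its likeness to HK2.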

How the data were processed

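Expression was measured on 6 arrays, 3 per sugar. The authors deposited an intensity for each probe set on each array. RMA was used, per the submitters' processing notes, with version and filters not given in the sources used here. This method corrects background, normalizes between arrays and summarises probes. The values reached 9287 and were read as linear, so log2 was taken with no pseudocount and no further normalization. Of 32321 rows, 4091 with identifiers below the lowest one paired with a gene were taken as controls and left out, and 28230 were tested. Symbols came from the platform annotation, and all 6 members matched a current gene number. Where a gene had several probe sets, the one with the highest mean log2 represented it. Arrays give no read depth; their number limits the precision (median standard error 0.095, log2).

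Fructose minus glucose was fitted with limma 3.58.1 in R 4.3.3 (lmFit, eBayes, no covariate, two-sided), with Benjamini-Hochberg adjustment over all tested probe sets and a threshold of 0.05. Within-array differences had exact permutation tests. The fit was tested on simulated data. Members, lists and the rule for named genes (all members, TXNIP, up to 3 genes per list with the smallest p and some fixed ones, and the 3 genes most alike in pattern) were chosen with earlier results of these data known. Promoter stretches are from RefSeq. Alternatives left out each array, blocked on the replicate number, normalized by quantiles again, centred each array, weighted the arrays, used an intensity trend and robust variances or no moderation, and tested bright probe sets, 1 probe set per gene or controls as well.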

Additional observations from a re-analysis of the deposited data

How the results depend on the processing

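Over the alternatives, 1 probe set past the threshold became 325 among bright probe sets alone, 473 with an intensity trend and robust variances, 35 with 1 probe set per gene and 0 with the unmoderated test. In the first 3 of these, 1 member passed in place of 0, and it was GCKR. It entered the bright set through its fructose arrays, since its glucose mean (4.75) is below the median of 5.01, so that pass is no support. Fewer probe sets were tested in the bright and the 1-per-gene settings. Why the counts differed was not tested for any setting. The difference of GCKR was between 0.69 and 0.84 and its adjusted p between 0.014 and 0.37 over 15 alternatives. HK2 ranged from 0.15 to 0.24 and passed in none. With an array left out HK1 ranged from -0.0085 (without fructose replicate 1) to 0.080, and no other member changed sign. The median over the members lay between 0.079 and 0.18 with an array left out. Whether the replicate numbers pair the cultures is not stated. Same-numbered arrays deviated from their group means with correlations of -0.026, -0.021 and -0.054, and differently numbered ones with -0.037 to 0.063. Whether same-numbered arrays shared a replicate effect was not tested, and these values cannot settle how the cultures were handled. With the replicate block 1 probe set and 0 members passed, and the adjusted p of GCKR was 0.37. Averaging several probe sets of a member was not run, because each had 1. Levels near those of olfactory receptor genes limit what HK3, KHK and, in glucose, GCKR can show.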

Other observations

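The neighbours of GCKR on chromosome 2 were looked at after its values were seen, in RefSeq's order of protein-coding genes. None of them overlaps GCKR there. FNDC4, the next gene on one side, had an intensity of 60.6, 56.0 and 67.4 in glucose and 69.9, 68.5 and 68.3 in fructose, a log2 difference of 0.17 (limma adjusted p = 0.44) without overlap between the sugars. IFT172, beyond it, differed by -0.07 (0.78). On the other side SPATA31H1 was dim, with 9.92, 9.38 and 12.2 in glucose and 9.97, 9.17 and 10.3 in fructose, and differed by -0.09 (0.78). ZNF512, the gene after that, had 69.7, 71.8 and 71.8 in glucose and 77.2, 90.8 and 84.2 in fructose. Its arrays did not overlap either, and its difference was 0.24 (limma adjusted p = 0.29), against 0.78 for GCKR. Thus 2 of 4 neighbours had no overlap, beside 20.2% of all tested probe sets.

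KHK overlaps CGREF1 in RefSeq. CGREF1 was dimmer than KHK, with 16.3, 16.0 and 13.4 in glucose and 16.3, 15.1 and 17.7 in fructose, and differed by 0.10 (limma adjusted p = 0.72), where KHK had -0.16. The low value of KHK on fructose replicate 1 (21.4) was not shared by CGREF1 on that array (16.3).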
